A study of Mus musculus with 92 samples.

Results

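The 10 genes described here make bile acids in the liver, carry them across cell membranes or, for Nr0b2, repress their synthesis. They are Cyp7a1, Cyp8b1, Cyp27a1, Cyp7b1, Cyp2c70, Baat, Nr0b2, Abcb11, Slc10a1 and Slc10a2. They were chosen by name for their roles, with earlier results of these data known, so counts of calls among them are descriptions. Each was found once among the 17275 genes whose counts could be read for female libraries. All 10 passed the filter on low counts, which left 12617 genes. The study measured RNA from livers of genetically heterogeneous mice of both sexes on a Control, a Low Amino Acid or a Low Isoleucine diet, and the series holds 92 libraries. The young mice began their diet at 9 weeks of age and were killed at 6 months, and the old mice began at 6 months and were killed at 24 months, per the labels. The series text also gives 13 weeks on the diets, which does not reach the labelled 24 months from a start at 6 months. All mice were fasted for 16 h before the liver was taken, so no fed liver was measured. Counts are reported for females only: 8 libraries each for 6-month Control, 6-month Low Amino Acid, 24-month Control and 24-month Low Isoleucine, and 7 each for 24-month Low Amino Acid and 6-month Low Isoleucine. Males enter through the authors' deposited comparisons alone, because the male counts in the deposited gene table do not sit on the lines of their genes.

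Bile acids are made from cholesterol in hepatocytes by a classic pathway, which Cyp7a1 opens, and an alternative pathway, which Cyp27a1 and Cyp7b1 open. They are joined to taurine or glycine, pumped into bile, taken back up in the ileum and returned to the liver in portal blood. Returning bile acids act on the nuclear receptor FXR, which induces Nr0b2 (SHP), a repressor of the synthetic enzymes. Fasting and feeding both act on this circuit.

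The 46 female libraries held totals of 7.82 M (1 M being 1000000 estimated counts) to 27.6 M and a median of 22.6 M, and the shallowest was replicate 5 of the 24-month Low Isoleucine group. A 47th column, replicate 3 of the 6-month Low Isoleucine group, was left out because it held 47.9 CPM of the Y-linked gene Kdm5d against at most 0.57 CPM in the young control and remaining young Low Isoleucine libraries. CPM means counts per 1000000 after TMM scaling of library sizes. The labels do not say whether libraries of a group came from separate cages or litters. In the titles, 19 of the 46 libraries share a number with another library of their group and differ from it in a letter, and what the number stands for is not given. All libraries were fitted as independent, so the p-values measure the spread between them and would be too small if same-numbered mice were alike, which was not tested. In RNA from whole tissue, fewer cells of a type and less RNA per cell cannot be told apart. The hepatocyte genes were high in every group, with Alb at 75027 to 95826 CPM on average. All 12 cholangiocyte genes of a fixed list were in the table, none was at 0 in a whole group, and their summed level lay between 45.97 and 97.34 CPM in every library.

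The aged control livers were uneven. Averaged over 15 acute phase genes, which hepatocytes turn on in inflammation, the mean log2 CPM was 7.54 to 8.26 in the 6-month controls and 7.94 to 11.7 in the 24-month controls. Summed counts of 8 neutrophil genes were 0.936 to 4.88 CPM in the young controls and 5.35 to 791 CPM in the old. Replicates 1 and 5 of the 24-month controls were highest in acute phase genes, and replicates 1 and 4 were highest in neutrophil genes. The 24-month Low Amino Acid livers were uneven as well, with neutrophil sums of 487 and 307 CPM in replicates 2 and 4 and at most 6.65 CPM in the other 5, and replicate 4 was at 11.8 in acute phase genes. Both are among 4 libraries taken here as absent from the authors' female table. The columns of that table name comparisons and no library, so this absence is an assumption. Results that rest on the 3 old controls, or on those 4 libraries, are therefore given with and without them, as alternatives chosen after the data were seen.

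The bases just upstream of transcription are shown for the 5 genes whose level passed the test in at least 1 comparison, because a change in mRNA level can begin there. Each stretch is 100 bases, read 5′ to 3′ on the gene's strand, from RefSeq's promoter table for GRCm38.p6, and ends before the more upstream of the RefSeq start and the GENCODE gene boundary. Capitals mark a TATAAA box on the gene's strand.
Cyp8b1, chr9:121916306-121916405, minus strand: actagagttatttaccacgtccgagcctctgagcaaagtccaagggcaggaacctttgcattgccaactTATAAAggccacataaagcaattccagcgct
Cyp2c70, chr19:40187334-40187433, minus strand: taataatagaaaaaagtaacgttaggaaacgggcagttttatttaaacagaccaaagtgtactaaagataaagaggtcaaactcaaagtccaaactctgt
Cyp27a1, chr1:74713435-74713534, plus strand: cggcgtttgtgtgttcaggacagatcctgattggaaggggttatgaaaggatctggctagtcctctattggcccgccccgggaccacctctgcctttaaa
Slc10a1, chr12:80968706-80968805, minus strand: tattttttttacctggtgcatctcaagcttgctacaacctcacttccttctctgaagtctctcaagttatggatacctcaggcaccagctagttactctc
Slc10a2, chr8:5105352-5105451, minus strand: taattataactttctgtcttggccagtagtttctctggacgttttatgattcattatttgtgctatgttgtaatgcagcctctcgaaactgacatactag
The box of Cyp8b1 began 31 bases upstream of its start. In 250 bases upstream, TATAAA was found for Cyp8b1 and Nr0b2, out of 7 of the 10 genes that the table holds, and 7.59% of 32851 promoters had it. This motif was added after the sequences were seen. AAGGTCA, the extended motif that the receptor Nr5a2 (LRH-1) binds, was searched on both strands and was in none of these windows and in 4.08% of all. A match or its absence describes the letters of these windows only.

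In the young controls the 10 genes spanned a wide range. Per kilobase of exon, Slc10a1 stood highest at 345 ± 42.8 CPM (mean ± SD, n = 8). Cyp8b1 (187 ± 66.1), Cyp27a1 (160 ± 29.8), Abcb11 (129 ± 26.5), Baat (105 ± 15.7), Cyp2c70 (91.0 ± 23.3) and Cyp7a1 (72.7 ± 27.4) followed in CPM per kilobase, and the mean ± SD ranges of neighbours in this order overlapped. Cyp7b1 (21.0 ± 10.4) and Nr0b2 (18.3 ± 6.01) came after a gap, and Slc10a2 was lowest at 0.935 ± 0.875. The spread between livers of a group also differed between the genes. The coefficient of variation of Baat was 9.67% to 20.9% over the 6 groups, and that of Cyp7a1 was 37.8% to 81.3%.

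**Figure D1:**
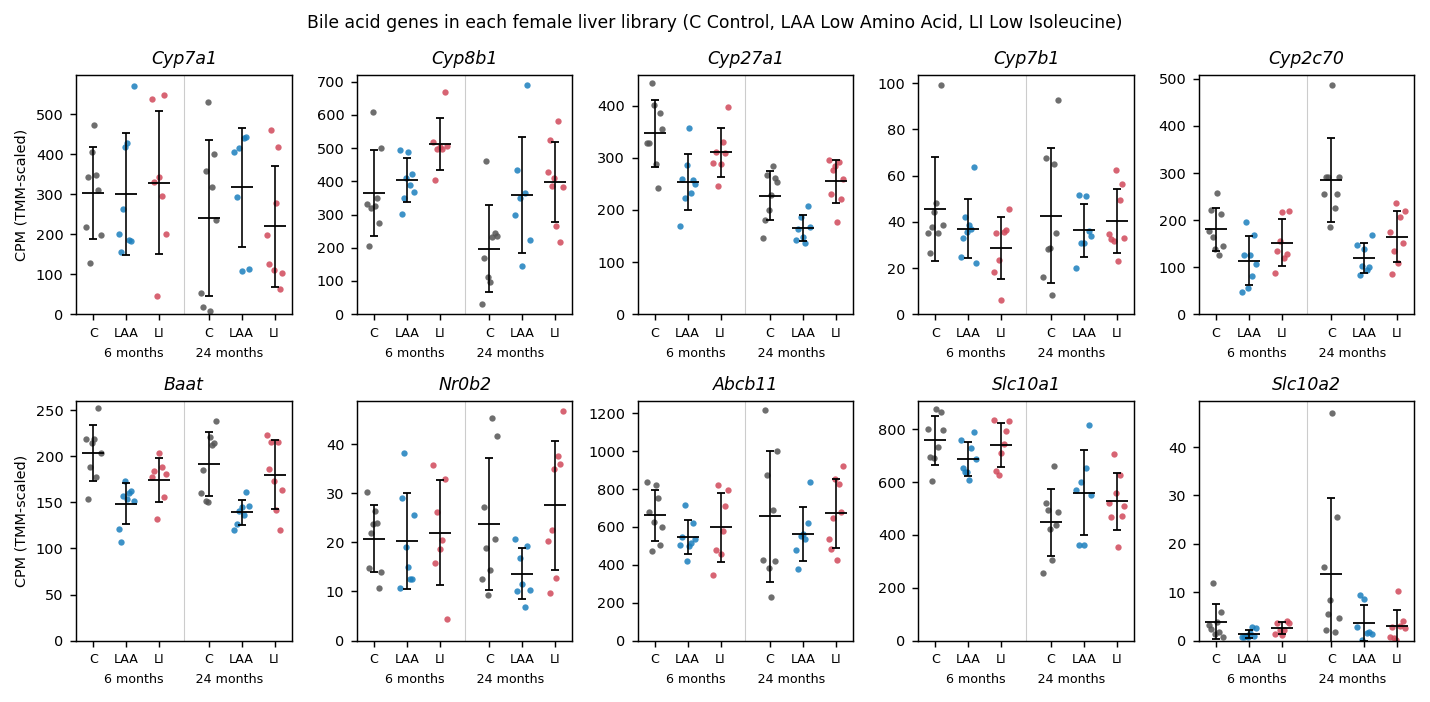
TMM-scaled CPM (vertical axis, from 0) of the 10 bile acid genes in each of 46 female liver libraries, by age and diet, with 1 point a library and the mean ± SD in black. Cyp2c70 in old Low Amino Acid livers, at most 169 CPM, lies wholly below the old controls, and Slc10a2 reaches 47.1 CPM in 1 old control.

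Each diet and age comparison was tested with edgeR's quasi-likelihood test over 12617 genes in 1 fit of the 6 groups, and a gene was called when its adjusted p (Benjamini-Hochberg) was under 0.05. In 24-month females Cyp2c70 was 0.42 times the control level on Low Amino Acid and 0.58 times on Low Isoleucine. On Low Isoleucine Slc10a2 was also lower (0.21 times) and Cyp8b1 higher (2.02 times). At 6 months none of the 10 genes passed the test on either diet. From 6 to 24 months in controls, Cyp8b1, Cyp27a1 and Slc10a1 fell and Cyp2c70 and Slc10a2 rose. Cyp7a1, Cyp7b1, Baat, Nr0b2 and Abcb11 passed the threshold in no comparison. The diet comparisons at 24 months and the age comparison in controls share the same 8 old control livers.

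**Figure D2:**
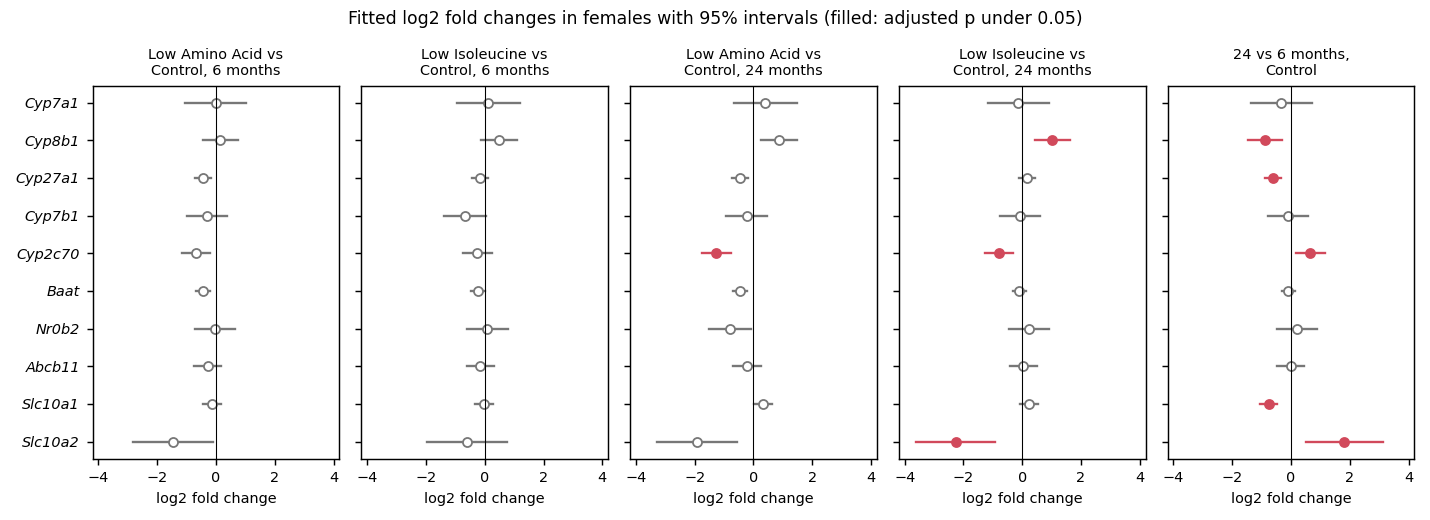
Fitted log2 fold changes (horizontal axis) of the 10 genes in 5 comparisons of female livers, with 95% intervals; filled points have an adjusted p under 0.05. There are 0 filled points at 6 months, 1 for the Low Amino Acid diet at 24 months, 3 for the Low Isoleucine diet at 24 months and 5 for age in controls.

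Cyp7a1 (chr4:6265612-6275633, minus strand, GRCm38 as for the genes below) codes for the rate-limiting enzyme of the classic pathway. Its lowest, median and highest levels were 129, 326 and 473 CPM in the 6-month controls and 8.46, 277 and 532 CPM in the 24-month controls. In the 24-month diet groups they were 109, 406 and 443 CPM on Low Amino Acid and 63.3, 163 and 462 CPM on Low Isoleucine. Old controls thus held the lowest Cyp7a1 level of all 46 libraries and also one of 532 CPM, near the highest of all (572 CPM). The Low Amino Acid difference from Control was -0.01 in log2 (95% interval -1.04 to 1.02) at 6 months and 0.40 (-0.67 to 1.47) at 24 months. The Low Isoleucine difference was 0.12 (-0.95 to 1.19) at 6 months and -0.13 (-1.16 to 0.91) at 24 months. Intervals this wide span a change of 0.5 in log2 either way, so a change of that size in Cyp7a1 was not detectable with this spread.

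Cyp8b1 (chr9:121914356-121916305, minus strand) codes for the sterol hydroxylase that steers the pathway to cholic acid. Its lowest, median and highest levels were 30.8, 200 and 460 CPM in the 24-month controls, and 217, 397 and 580 CPM in the 24-month Low Isoleucine livers. The ranges overlap, but 4 old controls lay below every Low Isoleucine liver. The Low Isoleucine livers were 1.02 ± 0.29 (SE) higher in log2, an adjusted p of 0.0293 in edgeR. Without old control replicates 1, 4 and 5 the difference was 0.57 with an adjusted p of 0.181, and in a fit of those 2 groups alone the adjusted p was 0.208. The call was also lost without old control replicate 4 or 5 or old Low Isoleucine replicate 6, with log2 values of 0.91 to 0.93 and adjusted p from 0.0511 to 0.0585.

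The Low Amino Acid livers at 24 months held 145, 349 and 688 CPM of Cyp8b1 as lowest, median and highest, a log2 difference from Control of 0.86 ± 0.30 with an adjusted p of 0.143. The 6-month controls held 207, 328 and 610 CPM. Old controls were 0.89 lower than these in log2 (SE 0.29, adjusted p = 0.0211), and without the 3 old controls the log2 value was -0.44 with an adjusted p of 0.249. Without young control replicate 4 it was -0.74 with an adjusted p of 0.0582, and a fit of the 2 control groups alone gave an adjusted p of 0.108. Within either restricted diet the age difference of Cyp8b1 did not pass, at -0.17 in log2 on Low Amino Acid (adjusted p = 0.85) and -0.36 on Low Isoleucine (adjusted p = 0.468). At 6 months the Low Isoleucine livers held 403, 502 and 669 CPM, and their difference from Control was 0.49 with an adjusted p of 0.632.

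Cyp2c70 (chr19:40153353-40187333, minus strand) codes for the mouse enzyme that makes muricholic acids from chenodeoxycholic acid. Its lowest, median and highest levels were 185, 274 and 487 CPM in the 24-month controls and 82.9, 103 and 169 CPM in the 24-month Low Amino Acid livers. Every old Low Amino Acid liver was below every old control, the only diet comparison of the 10 genes in which the groups did not overlap; 0.166% of all genes tested did so in that comparison. The ratio was 0.42, a log2 difference of -1.26 ± 0.25 with an adjusted p of 0.0166 in edgeR. This was 1 of 10 bile acid genes called, beside 0.745% of all genes.

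Cyp2c70 kept its call in the Low Amino Acid comparison when each of the 46 libraries was left out in turn and under all 8 other settings, with log2 values from -1.37 to -1.11 over the left-out libraries. On Low Isoleucine at 24 months it ranged from 85.5 through a median of 163 to 237 CPM, overlapping the controls. The log2 difference was -0.79 ± 0.24 with an adjusted p of 0.0343. That call was lost without old control replicate 5 or without any of old Low Isoleucine replicates 1, 2, 3, 5 and 7, with log2 values of -0.81 to -0.64 and adjusted p from 0.0517 to 0.0807. Without the 3 old controls the value was -0.73 with an adjusted p of 0.0787. The adjusted p was 0.0984 in a fit of the 2 groups alone and 0.267 with voom. It was 0.0894 without the 4 libraries taken as absent from the authors' female table. The 24-month controls were themselves 0.66 ± 0.24 higher in Cyp2c70 than the 6-month controls (lowest 126, median 170, highest 258 CPM; adjusted p = 0.0317). Without old control replicate 5, at 487 CPM, the age difference was 0.51 with an adjusted p of 0.108, and without young control replicate 4, 6 or 8 it was 0.60 to 0.62 with adjusted p from 0.057 to 0.0621. voom gave an adjusted p of 0.0948 for this age difference, and without the 3 old controls it was 0.104.

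At 6 months the Low Amino Acid livers held 46.6, 116 and 195 CPM of Cyp2c70 as lowest, median and highest, a log2 difference of -0.67 ± 0.24 with an adjusted p of 0.469. The effect at 24 months minus the effect at 6 months was -0.59 in log2 (95% interval -1.28 to 0.09, adjusted p = 0.539), so the diet's effect on Cyp2c70 was not shown to differ between the ages.

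Cyp27a1 (chr1:74713574-74737892, plus strand) codes for the mitochondrial sterol hydroxylase that opens the alternative pathway and also oxidises the side chain in the classic one. Its levels in the controls were 241, 342 and 444 CPM (lowest, median, highest) at 6 months and 147, 241 and 284 CPM at 24 months. Of the 8 old controls, 4 lay below the lowest young one, and the log2 difference was -0.61 ± 0.13 with an adjusted p of 0.00105 in edgeR. Leaving out any 1 library kept this call, and without the 3 old controls the value was -0.47 with an adjusted p of 0.0238.

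On Low Amino Acid, Cyp27a1 was again lower at 24 months (137, 163 and 207 CPM) than at 6 months (169, 253 and 357 CPM), at -0.63 ± 0.14 in log2 with an adjusted p of 0.0125. Without the 4 libraries taken as absent from the authors' female table the value was -0.60 with an adjusted p of 0.0794. It was 1 of 10 bile acid genes called for age on that diet, beside 1.61% of all genes. On Low Isoleucine the old livers held 176, 267 and 297 CPM and the young 246, 310 and 398 CPM, a log2 difference of -0.29 with an adjusted p of 0.182. Old Low Isoleucine livers held more Cyp27a1 than old Low Amino Acid livers, by 0.63 ± 0.14 in log2 (adjusted p = 0.0137), and this call was kept for every left-out library and all 8 other settings. It was the only bile acid gene called between the restricted diets at 24 months, where 1.25% of all genes were called. Against Control, the Low Amino Acid values of Cyp27a1 were -0.45 at 6 months (adjusted p = 0.355) and -0.47 at 24 months (adjusted p = 0.0809).

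Cyp7b1 (chr3:18071950-18243338, minus strand) codes for the oxysterol hydroxylase of the alternative pathway, which in mice is higher in male than in female liver. Its group means lay between 28.7 ± 13.3 CPM (6-month Low Isoleucine, n = 7) and 45.5 ± 22.6 CPM (6-month Control, n = 8). The log2 difference between these 2 groups, -0.67 with a 95% interval of -1.37 to 0.04, did not pass (adjusted p = 0.534). The left-out library of the 6-month Low Isoleucine group held 335 CPM of Cyp7b1, and with it in the fit the direction turned to 0.55 (adjusted p = 0.715), with 0 bile acid genes called in that comparison either way.

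Baat (chr4:49489422-49506557, minus strand) codes for the enzyme that joins bile acids to taurine or glycine. Its lowest, median and highest levels were 153, 210 and 253 CPM in 6-month controls and 107, 155 and 174 CPM in 6-month Low Amino Acid livers. At 24 months they were 150, 199 and 239 CPM in controls and 121, 141 and 161 CPM on Low Amino Acid. The ranges overlapped at both ages, and at 24 months only the highest Low Amino Acid liver reached the control range. The log2 difference was -0.46 at each age, with SE 0.12, and the adjusted p was 0.245 at 6 months and 0.0548 at 24 months. DESeq2 called the 24-month value of Baat (-0.46, adjusted p = 0.0204), and voom with quality weights called the 6-month value (-0.42, adjusted p = 0.0402). On Low Isoleucine the differences of Baat from Control were -0.22 at 6 months (95% interval -0.47 to 0.02) and -0.09 at 24 months (-0.33 to 0.14).

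Nr0b2 (chr4:133553376-133556536, plus strand) codes for SHP. Its group means were 13.6 ± 5.25 CPM (n = 7) in 24-month Low Amino Acid livers and 20.3 to 27.6 CPM in the other 5 groups. The log2 difference of old Low Amino Acid livers was -0.80 from Control (95% interval -1.52 to -0.09, adjusted p = 0.243). Old Low Isoleucine livers exceeded old Low Amino Acid livers in Nr0b2 by 1.02 in log2, and this value did not pass either (adjusted p = 0.135), while voom with quality weights called it (1.36, adjusted p = 0.0125).

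Abcb11 (chr2:69238282-69342616, minus strand) codes for the bile salt export pump of the canalicular membrane. The 24-month controls spread from 230 to 1217 CPM around a median of 556, wider than any other group of this gene. The group means ran from 545 ± 88.8 CPM (6-month Low Amino Acid, n = 8) to 671 ± 183 CPM (24-month Low Isoleucine, n = 8), and the smallest adjusted p of Abcb11 in any comparison of 2 groups was 0.648.

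Slc10a1 (chr12:80953183-80968705, minus strand) codes for NTCP, the sodium-dependent carrier that takes conjugated bile acids from blood into hepatocytes. Its lowest, median and highest levels were 603, 765 and 877 CPM in 6-month controls and 256, 463 and 661 CPM in 24-month controls. Only 1 old control reached the young range. The log2 difference was -0.76 ± 0.15 with an adjusted p of 0.00039 in edgeR, and without the 3 old controls it was -0.54 with an adjusted p of 0.0122. The call held for each left-out library.

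In Low Isoleucine livers Slc10a1 fell from 629, 745 and 837 CPM at 6 months to 354, 517 and 705 CPM at 24 months, a log2 difference of -0.49 ± 0.15 with an adjusted p of 0.0387. It was 1 of 10 bile acid genes called there, beside 7.34% of all genes. That call was lost without any of old Low Isoleucine replicates 2, 5, 7 and 8 or young Low Isoleucine replicates 1, 6, 7 and 8. The log2 values were then -0.49 to -0.43 and the adjusted p 0.0509 to 0.11, the last without the shallow old replicate 5. Without the 4 libraries taken as absent from the authors' female table it was -0.39 with an adjusted p of 0.159. With no filter on low counts the adjusted p was 0.0503. In Low Amino Acid livers the age difference of Slc10a1 was -0.30 with an adjusted p of 0.388. The diet effect at 24 months minus that at 6 months was 0.46 in log2 for Low Amino Acid (adjusted p = 0.482) and 0.27 for Low Isoleucine (adjusted p = 0.787). The Low Amino Acid value was called in the fit without those 4 libraries.

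Slc10a2 (chr8:5083219-5105351, minus strand) codes for ASBT, the bile acid carrier of the ileum, which in liver is known from cholangiocytes. Its lowest, median and highest levels were 0.818, 2.80 and 11.9 CPM in 6-month controls and 1.69, 6.96 and 47.1 CPM in 24-month controls. The Low Isoleucine livers at 24 months held 0.193, 2.68 and 10.3 CPM. The old groups overlap, but 3 old controls (replicates 1, 5 and 7, at 15.3, 47.1 and 25.6 CPM) exceeded every other library.

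The log2 difference of Slc10a2 on Low Isoleucine at 24 months was -2.27 ± 0.66 with an adjusted p of 0.0308 in edgeR. With replicate 5 of the old controls left out it was -1.65 with an adjusted p of 0.0964. It also missed the threshold without old control replicate 7 or old Low Isoleucine replicate 1, 3, 4 or 8, at -2.25 to -2.08 with adjusted p from 0.0538 to 0.0646. Without old control replicates 1, 4 and 5 it was -1.47 with an adjusted p of 0.202. Old against young controls gave 1.82 ± 0.64 (adjusted p = 0.0304), then 1.20 (adjusted p = 0.153) without old control replicate 5 and 1.04 (adjusted p = 0.311) without the 3. Without old control replicate 7 or young control replicate 4, 6 or 8 it was 1.63 to 1.71 with adjusted p from 0.0534 to 0.065. Fits of the 2 compared groups alone gave adjusted p = 0.163 for the Low Isoleucine difference and 0.0678 for the age difference of Slc10a2, and voom gave 0.0839 for the latter. On Low Amino Acid the lowest, median and highest levels were 0.0912, 1.72 and 9.48 CPM at 24 months, a log2 difference from Control of -1.91 ± 0.68 with an adjusted p of 0.147. The summed cholangiocyte genes were at a median of 66.8 CPM in the old controls, 81.6 CPM on Low Amino Acid and 69.7 CPM on Low Isoleucine. Of the 12 listed cholangiocyte genes 8 were tested. On Low Amino Acid at 24 months 0 were called, beside 0.745% of all genes, and 4 had an unadjusted p under 0.05 in edgeR, beside 16.9%. In that comparison 5 of the 8 differences were positive and 3 negative, with a median of 0.20 in log2. On Low Isoleucine at 24 months 1 was called higher, beside 6.48%. With age in controls 1 was called higher and 1 lower, beside 28.0%. Levels of single listed genes follow as examples at low level, not as a summary of the list. The bile duct keratin Krt7 averaged 1.10 ± 0.58, 0.70 ± 0.37 and 0.87 ± 0.29 CPM in old Control, Low Amino Acid and Low Isoleucine livers. In the same order Krt19 averaged 0.98 ± 0.87, 0.60 ± 0.20 and 0.72 ± 0.22 CPM. For Epcam, an epithelial adhesion protein, the means were 0.784 ± 0.23, 0.998 ± 0.25 and 0.831 ± 0.43 CPM. The ranges of each of these genes overlapped between the groups. The part of bile duct cells in the level of Slc10a2 was not tested.

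Read against all genes, the counts of calls were as follows. For Low Isoleucine at 24 months, 3 of 10 bile acid genes were called and 6.48% of all genes. For age in controls, 5 of 10 were called and 28.0% of all genes. Without the 3 old controls the counts were 0, beside 6.23% of all genes, and 2, beside 15.2%. In fits of the compared groups alone they were 0, beside 0.33% of all genes, and 3, beside 17.9%. For Low Amino Acid at 24 months the count was 1 of 10, beside 0.745% of all genes. The 4 libraries taken as absent from the authors' female table were Low Amino Acid replicates 2 and 4 and Low Isoleucine replicates 2 and 5. Without them the count was 6, in a fit that called 11.7% of all genes. The 6 were Cyp2c70, Baat, Cyp27a1, Cyp8b1, Slc10a1 and Slc10a2. Without old control replicate 3 alone it was 3, with Cyp8b1 (1.17) and Baat (-0.50) added at an adjusted p of 0.0414, and Baat also passed without any 1 of 5 other libraries (old control replicate 4, old Low Amino Acid replicate 4, old Low Isoleucine replicates 5 and 7, young Low Isoleucine replicate 4; adjusted p from 0.0251 to 0.0498). The share of all genes called in these fits with 1 library left out is not given here. At 6 months 0 of 10 were called on Low Amino Acid, beside 0.0% of all genes, and 4 had an unadjusted p under 0.05, beside 8.11% of all genes. On Low Isoleucine at 6 months 0 were called, beside 0.0238% of all genes, and 0 had an unadjusted p under 0.05, beside 10.1%. DESeq2 also called 0 in both 6-month comparisons, beside 0.066% (Low Amino Acid) and 0.383% (Low Isoleucine) of all genes. With voom 2 were called on Low Amino Acid (Baat and Cyp27a1), beside 0.412%. Between the restricted diets at 6 months 0 were called, beside 0.0159% of all genes, with 1 at an unadjusted p under 0.05, beside 9.99%. DESeq2 and voom called 0 there, beside 0.143% and 1.03% of all genes. Neither difference of a diet's effect between the ages was called for any of the 10 genes, nor for any gene (0.0%). For Low Amino Acid and Low Isoleucine, 1 and 0 of the 10 had an unadjusted p under 0.05, beside 10.3% and 8.50% of all genes. DESeq2 called 0 of the 10, beside 0.0% and 0.0793%. Without the 4 libraries, the Low Amino Acid difference was called for 1 of the 10 (Slc10a1), beside 4.12% of all genes.

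The other genes of bile acid handling were followed on lists that hold 49 genes of the table, of which 47 were tested. In control livers 22 of the 47 fell with age and 3 rose, with a median log2 difference of -0.40 against 0.03 over all genes tested, and 28.0% of all genes were called in either direction. Without the 3 old controls the falls were 12 and the rises 2, beside 15.2% of all genes. The largest falls were Slco1a1 (-2.56) and Slco1a4 (-1.09), which are organic anion carriers of the hepatocyte, and Sult2a8 (-1.10), a bile acid sulfotransferase. The 3 that rose were Abcc4 (0.96) and Slc51b (0.93), which export bile acids back to blood, and Atp8b1 (0.55), a flippase of the canalicular membrane. Slco1a1, Slco1a4, Sult2a8 and Abcc4 kept their calls without the 3 old controls and with each library left out in turn, while Slc51b kept its call for 18 of the 46 left-out libraries and under 5 of the 8 other settings. Atp8b1 was called under 6 of the 8, and not without the 3 old controls (0.32, adjusted p = 0.152).

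At 24 months 1 of the 47 was called on Low Amino Acid, beside 0.745% of all genes, 3 on Low Isoleucine, beside 6.48%, and 1 between the restricted diets, beside 1.25%. On Low Amino Acid at 24 months Nr5a2 (LRH-1, an activator of bile acid synthesis) rose by 0.40 in log2 (adjusted p = 0.0275). On Low Isoleucine at 24 months Slco1a4 rose by 1.05 (adjusted p = 0.0143), Akr1c6 fell by 0.74 (adjusted p = 0.00533) and Atp8b1 fell by 0.57 (adjusted p = 0.0187). Akr1c6, an aldo-keto reductase, also differed between the old restricted groups, at -0.66 in log2 for Low Isoleucine against Low Amino Acid (adjusted p = 0.0423). With age on Low Amino Acid, Slco1a1 fell by 2.09 and Nr1i2, the xenobiotic receptor PXR, fell by 0.49, and Abcc4 rose by 1.08. With age on Low Isoleucine, Sult2a8 fell by 0.97 and Rxra, the partner receptor of FXR, fell by 0.30, and Abcc4 rose by 1.27. With each library left out in turn, the age calls on Low Amino Acid held in 45 (Slco1a1), 36 (Nr1i2) and 38 (Abcc4) of 46 fits, and those on Low Isoleucine in 46 (Sult2a8 and Abcc4) and 35 (Rxra). The diet calls held in 41 fits for Nr5a2, 45 for Atp8b1 and all 46 for Slco1a4 and for Akr1c6 against Control, and in 37 for Akr1c6 between the restricted diets. Of the 8 other settings, 5 kept the call for Nr5a2, for Atp8b1, for Akr1c6 between the restricted diets, for Nr1i2 and for Rxra. It was kept in 6 for Slco1a4 and for Slco1a1, in 7 for Akr1c6 against Control, Sult2a8 and Abcc4 on Low Amino Acid, and in all 8 for Abcc4 on Low Isoleucine. Without the 3 old controls the diet calls of Nr5a2 (0.34, adjusted p = 0.0839), Slco1a4 (0.83, adjusted p = 0.0604) and Atp8b1 (-0.33, adjusted p = 0.198) did not pass. At 6 months 0 of the 47 were called by edgeR on either diet, with 4 of them at an unadjusted p under 0.05 for Low Amino Acid, beside 8.11% of all genes, and 10 for Low Isoleucine, beside 10.1%.

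Acute phase genes moved with some of these contrasts. Of 15 tested, 13 rose with age in controls and 11 fell on Low Isoleucine at 24 months, with medians of 1.72 and -1.34 in log2, where 28.0% and 6.48% of all genes were called. On Low Amino Acid at 24 months 0 of the 15 were called (median -0.50), beside 0.745% of all genes. With age 7 rose on Low Amino Acid, beside 1.61%, and 0 were called on Low Isoleucine, beside 7.34%. Between the restricted diets at 24 months 2 were lower on Low Isoleucine, beside 1.25%. At 6 months 0 were called on Low Amino Acid, beside 0.0%, and 0 on Low Isoleucine, beside 0.0238%. Markers of other cells moved with age in controls too. Of 8 neutrophil genes 8 rose (median 6.59 in log2), and of 9 genes of Kupffer cells, the macrophages of the liver, 7 rose (median 1.17). Of 8 genes of hepatocytes near the central vein 4 fell (median -0.50). Of 8 genes of portal hepatocytes 2 fell and 1 rose (median -0.14). Of 6 stellate cell genes 2 rose and 1 fell (median 0.13), and of 5 endothelial genes 0 were called. On Low Isoleucine at 24 months 3 of the 8 neutrophil genes fell (median -3.29) and 0 of the 9 Kupffer cell genes were called (median -0.78). Of the central-vein genes 1 rose and 0 fell, and of the portal genes 1 rose and 2 fell. The part of these cells in the bile acid gene differences was not tested. To see which bile acid genes followed them from liver to liver, deviations of log2 CPM from each group's mean were correlated over the 46 libraries, with permutation p-values within groups adjusted over 56 relations. Slc10a2 rose and fell with the acute phase list (Pearson r = 0.66, adjusted permutation p = 0.00336; Spearman rho = 0.63, adjusted p = 0.00336). The sign was the same in all 6 groups, r was 0.59 without the 2 libraries farthest from the median and 0.63 without the 8 old controls. Slc10a1 gave r = -0.67 (adjusted permutation p = 0.00896), but rho = -0.33 did not pass (adjusted p = 0.128). For Slc10a1 the sign was the same in 4 of the 6 groups, and r was -0.58 without the 2 farthest libraries and -0.52 without the 8 old controls. Cyp8b1 gave r = -0.44 and rho = -0.16 (adjusted permutation p = 0.152 and 0.529). The remaining members passed with neither coefficient, the smallest adjusted permutation p being 0.198 for Cyp7b1 and Abcb11. Slc10a2 and the cholangiocyte list gave r = -0.03 and rho = -0.12 (adjusted permutation p = 0.948 and 0.587). The part of inflammation in the age and diet differences was not tested beyond these values and the fits without the 3 old controls.

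**Figure D3:**
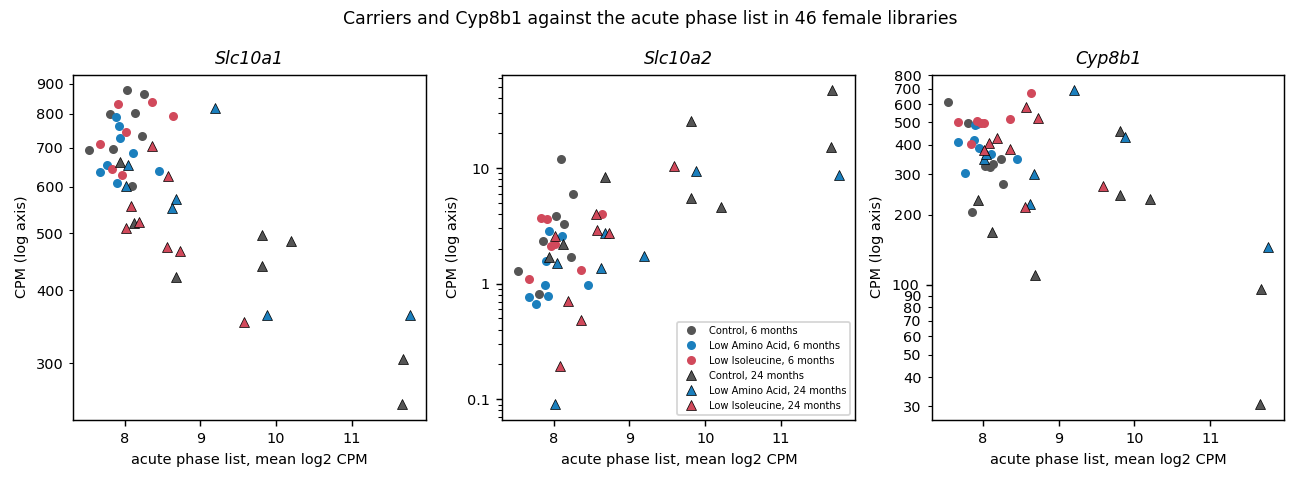
CPM of Slc10a1, Slc10a2 and Cyp8b1 (log vertical axes) against the mean log2 CPM of 15 acute phase genes in 46 female libraries, with 1 point a library coloured by diet and shaped by age. Slc10a2 reaches 47.1 CPM in replicate 5 of the 24-month controls, and Slc10a1 falls to 256 CPM in replicate 1. These are the 2 old controls highest in acute phase genes. The library farthest right, replicate 4 of the 24-month Low Amino Acid group, held 8.62 CPM of Slc10a2 and 363 CPM of Slc10a1.

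Among the 45 pairs of the 10 genes, 5 passed with both coefficients. Cyp8b1 went with Slc10a1 (r = 0.61, adjusted permutation p = 0.0122; rho = 0.48) and with Cyp27a1 (r = 0.50, adjusted permutation p = 0.0122; rho = 0.47). Cyp27a1 went with Baat (r = 0.49, adjusted permutation p = 0.0143; rho = 0.48) and Abcb11 with Slc10a1 (r = 0.48, adjusted permutation p = 0.0446; rho = 0.44). The carriers Slc10a1 and Slc10a2 went opposite ways (r = -0.59, adjusted permutation p = 0.0122; rho = -0.47). Leaving out the 2 libraries farthest from the median, r was 0.51 for Cyp8b1 with Slc10a1, 0.36 for Cyp8b1 with Cyp27a1, 0.44 for Cyp27a1 with Baat, 0.40 for Abcb11 with Slc10a1 and -0.56 for the 2 carriers. Without the 8 old controls r was, in the same order, 0.44, 0.32, 0.49, 0.33 and -0.51. Cyp7a1 and its repressor Nr0b2 showed no relation past the threshold in these fasted livers (r = 0.10, rho = 0.16; adjusted permutation p = 0.694 and 0.528).

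Over all 12617 genes, the one whose log2 CPM across the 46 libraries was most like each member is named here as a description, with groups and library depth shared by all points. Slc10a1 had the closest partner, Cmbl, a carboxymethylenebutenolidase homolog (r = 0.93). Cyp8b1 was most like Fbxo21 (0.83) and Cyp27a1 most like Ttc7b (0.77). Abcb11 was most like Amt (0.75), a glycine cleavage enzyme, and Slc10a2 most like Fosl2 (0.74), an AP-1 transcription factor subunit. Baat was most like Rps27rt (0.69), Cyp2c70 like Atf4 (0.68), a transcription factor of amino acid stress, Nr0b2 like Acads (0.68) and Cyp7b1 like Kcnk10 (0.63). For Cyp7a1 the 3 closest were Mblac2 (0.77), Txnrd3 (0.77) and Tert (0.76). With each group's mean removed, r was 0.38 for Cyp2c70 with Atf4 and 0.50 to 0.86 for the closest partners of the other members. Without the 2 farthest libraries it ran from 0.41 (Cyp7b1 with Kcnk10) to 0.90 (Slc10a1 with Cmbl), with 0.56 for Cyp7a1 with Mblac2.

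In males only the authors' deposited table could be read, so its values stand without replicates or SD. A positive fold change there is taken to mean more RNA under restriction, or in the older mice. This reading is carried over from the female table, whose diet columns followed the female counts (r from 0.877 to 0.914). The male counts could not be used to check it. In the authors' deposited table for 6-month males on Low Isoleucine, Cyp7b1 was at -1.20 (adjusted p = 0.0132), Abcb11 at 0.75 (adjusted p = 0.0256) and Baat at 0.42 (adjusted p = 0.00399) in log2. That is 3 of 10, beside 21.1% of all genes in the authors' deposited table. For young males on Low Amino Acid the authors' deposited table calls 1 of 10, beside 16.3%: Slc10a1, with a log2 value of 0.38 and a deposited adjusted p of 0.0341. At 24 months the authors' deposited table for males calls 0 of 10 on Low Amino Acid, beside 0.0563%, and 1 of 10 on Low Isoleucine, Slc10a2 at -1.85 (adjusted p = 0.0299), beside 0.0676%. With age in male controls the authors' deposited table has Slc10a2 at 1.91 (deposited adjusted p = 0.000407), Cyp2c70 at 1.14 (adjusted p = 0.0183) and Baat at 0.59 (adjusted p = 4.8e-05), 3 of 10 beside 20.0%.

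In the authors' deposited table for females, 5 of 10 were called on Low Amino Acid at 24 months, beside 5.53% of all genes. They were Cyp2c70 at -1.24, Slc10a2 at -2.89, Baat at -0.45, Cyp8b1 at 1.20 and Slc10a1 at 0.54. Which libraries entered that table is not given in it. On Low Isoleucine at 24 months the authors' deposited table calls 2 of 10, beside 9.24%: Slc10a2 at -2.73 and Cyp8b1 at 1.28. For age in female controls the authors' deposited table calls 4 of 10, beside 23.5%: Slc10a1 at -0.80, Cyp27a1 at -0.59, Cyp8b1 at -1.14 and Cyp2c70 at 0.66. Set side by side, the authors' deposited tables give Cyp7a1 on Low Amino Acid at 24 months as 1.43 in females and -1.42 in males, neither past the threshold. The edgeR fit of the female counts gave 0.40 for the same female comparison, with a 95% interval of -0.67 to 1.47. The difference between the sexes was not tested.

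**Figure D4:**
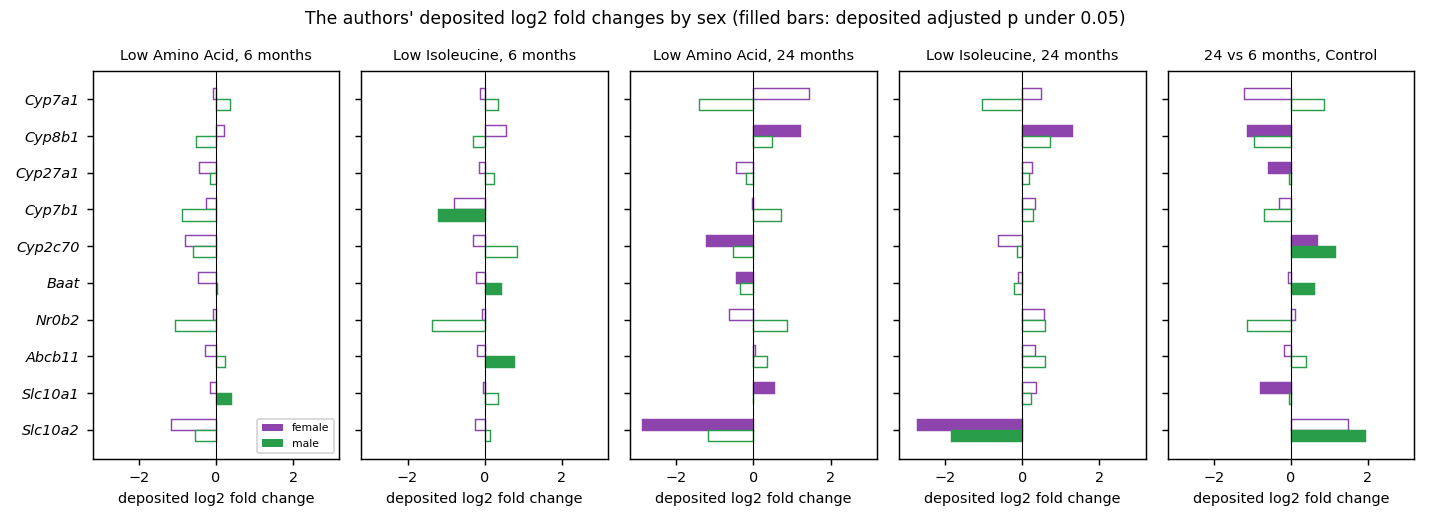
The authors' deposited log2 fold changes (horizontal axis) of the 10 genes in females (purple) and males (green) for 5 comparisons; filled bars have a deposited adjusted p under 0.05. Slc10a2 extends to -2.73 in females and -1.85 in males on Low Isoleucine at 24 months.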

How the data were processed

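Livers of female mice were compared from the gene table of estimated counts that the authors deposited, made with poly(A) stranded libraries per the labels' protocols. The submitters' processing notes name edgeR, limma, R 3.4.3 and GRCm38.p5; no source used here names the aligner. Of 51912 lines in the deposited table, 17275 have every column filled and were used. The 45 male columns do not match their gene names: median Alb is 75 there against 1905880 estimated counts in female columns. The authors' deposited comparison tables give log2 fold changes and p-values, used for males and side by side, and an F statistic, a score per gene by the authors, which was not used.

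Estimated counts were rounded. edgeR 4.0.16 (R 4.3.3; filterByExpr, TMM, glmQLFit, 1 mean per group, glmQLFTest, Benjamini-Hochberg) tested 12617 genes in 46 libraries, and was tested on simulated data. Correlations used 100000 permutations. CPM per kilobase used GENCODE exon lengths. Alternatives were DESeq2 1.42.0, RLE factors, no filter, the compared groups alone, voom (limma 3.58.1), the left-out library, each library left out, and 2 sets of libraries left out that were chosen after seeing the data. The 10 genes and all lists were chosen with earlier results of these data known. All 10 are named. Of the lists of other bile acid genes, all called genes are named, or the 3 largest changes each way where over 6 were called. For the marker lists counts are given, and called genes are not all named. The most alike gene of each member is named (3 for Cyp7a1). Replicate numbers only name samples.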

Additional observations from a re-analysis of the deposited data

Results flagged for a closer look

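Of 60 groups of libraries screened (10 genes in 6 groups), 5 held a library far above the others of its group, and chance gives about 1 in 20. Cyp8b1 stood at 668.5 CPM in replicate 7 of the 6-month Low Isoleucine livers, with the next at 516.8 CPM. Cyp7b1 stood at 99.1 CPM in replicate 7 of the 6-month controls, with the next at 48.0 CPM. Cyp2c70 stood at 487.2 CPM in replicate 5 of the 24-month controls, with the next at 292.3 CPM. Slc10a2 stood at 11.9 CPM in replicate 3 of the 6-month controls and at 10.3 CPM in replicate 5 of the 24-month Low Isoleucine livers, the shallowest library, with the next at 5.92 and 4.01 CPM.

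The library left out of the 6-month Low Isoleucine group held 334.9 CPM of Cyp7b1, above the 26.7 to 99.1 CPM of the young controls and the 6.27 to 45.4 CPM of the rest of its group. Its Cyp2c70, at 83.8 CPM, lay below the 126 to 258 CPM of the young controls.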

How the results depend on the processing

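Over all 110 values of the 10 genes, 12 were called. None of these 12 changed sign, and 5 kept their call with every library left out and 4 under all 8 other settings. Of 5940 recomputed values of the 10 genes 149 changed sign, all where the gene was not called, among them Cyp7b1 on Low Isoleucine at 6 months (0.55 with the left-out library). With libraries left out in turn, the called genes numbered 1 to 3 for Low Amino Acid at 24 months (1 with all libraries), 0 to 3 for Low Isoleucine at 24 months (3), 2 to 5 for age in controls (5) and 0 to 1 for age on Low Isoleucine (1); in the other comparisons the count did not move. The share of all genes called in each of those fits is not given here, so these counts are not set against it. DESeq2 called 3 for Low Amino Acid at 24 months, beside 2.43% of all genes. voom with quality weights called 2 for Low Amino Acid at 6 months, beside 0.412% of all genes. It called 3 between the restricted diets at 24 months, beside 6.59%, and 3 for age in controls, beside 20.3%. The compared groups alone gave 0 for Low Isoleucine at 24 months, beside 0.33%, and 3 for age in controls, beside 17.9%. No filter on low counts gave 0 for age on Low Isoleucine, beside 4.98%. Without the 3 old controls, chosen after seeing the data, the counts were 0 for Low Isoleucine at 24 months, beside 6.23% of all genes. For age in controls the count was then 2, beside 15.2%. The 4 libraries taken as absent from the authors' female table were also chosen after seeing the data. Without them 6 were called for Low Amino Acid at 24 months, beside 11.7% of all genes. For age on Low Amino Acid the count was 0, beside 0.206%, and for age on Low Isoleucine 0, beside 0.941%. For the difference of the Low Amino Acid effect between the ages it was 1 (Slc10a1), beside 4.12%. The smaller number of samples is part of each fit that leaves libraries out; the cause was otherwise not tested. No paired analysis was possible because the labels give no replicate numbers shared between groups.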
